A study of Mus musculus with 21 samples.

Results

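The cells described here are those of the column named HFSC in the authors' table of 3 mouse skin populations, set against the column named bulk, which holds total epidermis. HFSC stands for hair follicle stem cell. Members are the gene rows of this pair whose deposited test had the status OK, each value going to the population that its row names and repeats being dropped. They number 14035 of 43944 gene rows, and 12394 of them (88.3%) carry a protein-coding label in the table.

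The series holds 21 RNA libraries in 7 groups of 3. Behind the 3-population table are wild type keratinocytes of 3 kinds: FACS-purified HFSCs, total epidermal cells and HFSCs from culture. Another table compares the CD34+ and the CD34neg fraction, both alpha-6 integrin+, of 3C cultures, in which epidermal cells had been kept for 10 to 14 days. The last compares such cultures after 48 h with cyclopamine, an inhibitor of Smoothened, or with dorsomorphin, an inhibitor of BMP type I receptors. The culture groups carry no genotype label. Age and strain are not given in the sources used here, nor is any step that sets apart the animals behind each library. The name CD34a6 spells the sort markers CD34 and alpha-6 integrin, which also define a fraction of the 3C cultures. Neither that name nor HFSC says whether the cells had been cultured. HFSC is therefore used below as a column name, and its cells are read as possibly cultured.

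Basal keratinocytes sit on the basement membrane through integrins and hemidesmosomes and build their cytoskeleton from keratins 5 and 14. On leaving the membrane they switch to keratins 1 and 10 and assemble a cornified envelope from loricrin, filaggrin and small proline-rich proteins. Hair follicle stem cells rest in the bulge of the follicle, where they carry CD34, keratin 15 and the transcription factors Lhx2 and Sox9. Keratinocytes at a wound edge, or in a dish, make keratins 6, 16 and 17, matrix proteases and inflammatory ligands.

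Each gene has 1 FPKM per column (fragments per kilobase of transcript, scaled to depth), which the authors made from the libraries of a population. No spread between libraries therefore stands beside any level, and depth is unknown. Whether the 3 libraries of a group are of different animals or dishes is not in the labels, so the spread behind the deposited p-values may be technical. Called means an adjusted p (q) under 0.05 in the authors' deposited table. Of the tested genes 6137 (43.7%) were called, 2664 of them (19%) higher in HFSC and 3473 (24.7%) lower. List medians below are of log2((HFSC + 1)/(bulk + 1)) in FPKM, and the median over all tested genes was -0.11. Summed FPKM was 482175 in HFSC and 917078 in bulk. Dividing each column by its sum would move every log2 difference by 0.93 towards HFSC and the median of all tested genes to 0.66, so calls of a lower level under 1.90-fold turn direction on that scale. In the authors' deposited table the value nearest to the threshold on the called side was that of Gm10605, a long noncoding RNA gene (0.0152 against 0.466 FPKM, q = 0.0499), and on the other side that of Mrpl30, which encodes a mitochondrial ribosomal protein (111 against 183 FPKM, q = 0.05002).

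Markers of basal and activated keratinocytes were high in HFSC, and the bulge genes Cd34 and Krt15 were not. Krt14, the basal keratin gene, stood at 8296 FPKM in HFSC, 3419.7 in bulk and 1257 in CD34a6, and was higher in HFSC than in bulk by 2.43-fold. Krt6b, a keratin gene of activated epidermis, stood at 374, 2.89 and 0.285 FPKM, a 129-fold difference from bulk. Itgb1, which encodes the beta-1 integrin chain, was at 285, 29.9 and 107 FPKM, 9.54-fold above bulk. Mmp13, the collagenase-3 gene, was at 50.3 FPKM in HFSC and 0.0760 in bulk and was listed at 0 in CD34a6. Against bulk, q in the authors' deposited table was 0.0106 for Krt14, 0.000212 for Krt6b and for Itgb1, and 0.00278 for Mmp13. HFSC was the highest of the 3 columns for all 4 genes. The sort gene Cd34, at a locus that also covers Cd46, had 8.70 FPKM in HFSC, 10.6 in bulk and 327 in CD34a6, and HFSC and bulk were not called apart. Itga6, the other sort gene, was 4.23-fold above bulk at 306 FPKM.

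On GRCm38 the deposited locus of Krt14 runs from 100203162 to 100207548 on chromosome 11, that of Krt6b from 101676034 to 101680289 on chromosome 15, that of Itgb1 from 128685654 to 128733200 on chromosome 8 and that of Mmp13 from 7272514 to 7283333 on chromosome 9. These are whole genes with their exons and introns. The Krt6b locus also covers AC120787.2. Some 43.0% of the tested genes lie at a locus shared with another symbol, so reads of such neighbours may not be separated. Named genes at a locus with another protein-coding gene include Col18a1, Lamb3, Rptn, Zfp750, Mmp1b, Timp3, Ccl27a, Ackr4, Thbs3, Zyx, Nrg4, Erbb2, Igfbp7, Tgfb3, Atf5, Ddit3, Ccnd1, Rb1, Tap1, Pmel, Nr1d1 and Gsto1.

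**Figure D1:**
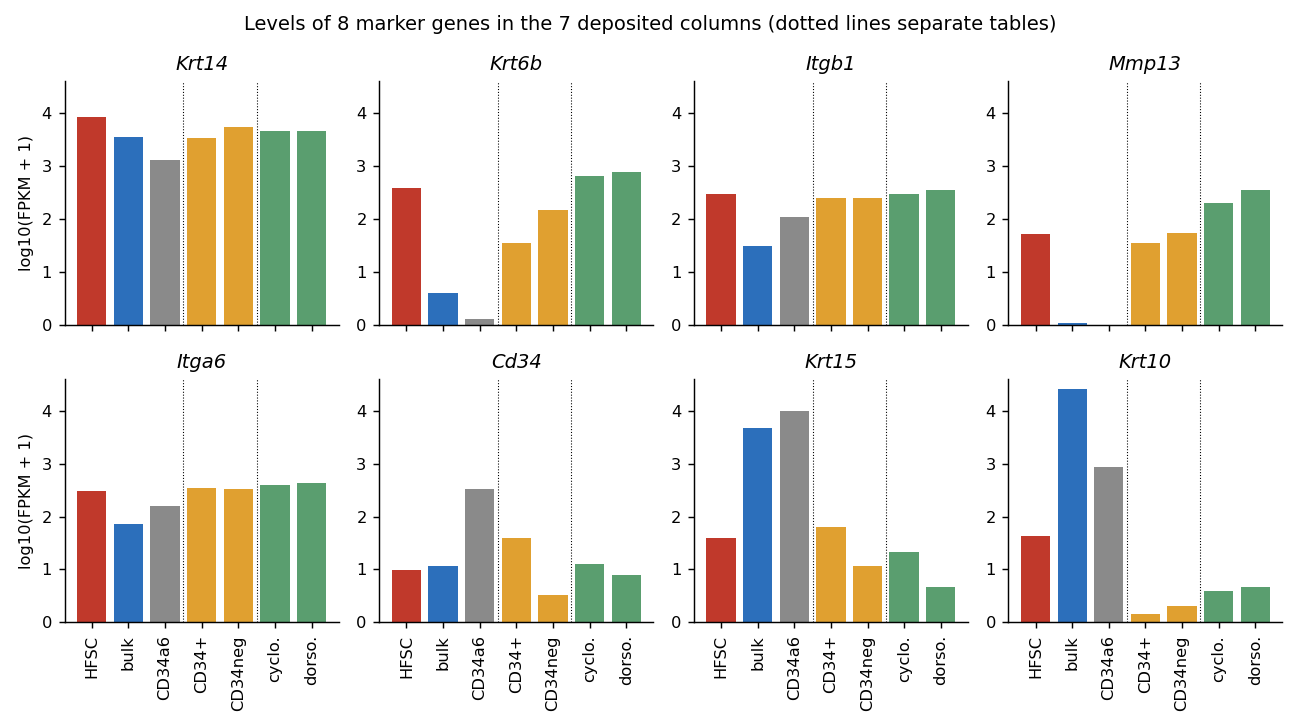
Levels of 8 genes as log10(FPKM + 1) in the HFSC, bulk and CD34a6 columns and in the 4 columns of the culture tables (CD34+ and CD34neg fractions, cyclopamine, dorsomorphin), 1 bar per deposited value with no error bar. Dotted lines separate tables that were normalised apart. Mmp13 stands at 50.3 FPKM in HFSC and between 33.8 and 344 in the culture columns, and Krt10 at 25128 FPKM in bulk.

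The culture tables were normalised apart, so their levels are set beside the others without a test. Across 15174 genes with at least 1 FPKM in some column, Spearman's rho with the HFSC column was 0.805 and 0.803 for the CD34+ and CD34neg fractions, 0.832 for bulk, 0.845 for CD34a6, and 0.846 for cyclopamine and for dorsomorphin. These values are across genes, which are not replicates, and the fractions lay below bulk and CD34a6. The genes that follow are single cases. Mmp13 was at 33.8 FPKM in the CD34+ fraction, 52.7 in the CD34neg fraction, 195 with cyclopamine and 344 with dorsomorphin, and none of these columns was at the near-0 level of bulk. Krt6b ranged over the same columns from 34.4 to 766 FPKM and Itgb1 from 242 to 344. Krt15, the bulge keratin gene, was at 37.9 FPKM in HFSC, between 3.61 and 62.4 in the culture columns, at 4791 in bulk and at 9923 in CD34a6. Krt10 was at 41.5 FPKM in HFSC and at most 3.62 in culture, against 25128 in bulk. Cdkn2a was unlike these genes. It encodes the cell cycle inhibitor p16 and ARF, and was at 22.4 FPKM in HFSC and 0.11002 in bulk, and stood at no more than 0.112 in the 4 culture columns, with the CD34neg and the cyclopamine column listed at 0.

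Against bulk, bulge genes went both ways. Of 34 tested genes 10 were higher in HFSC than in bulk (29.4%) and 13 lower (38.2%), beside 19% and 24.7% of all tested genes. The list median was -0.14, which turns to 0.74 with columns divided by their sums. Runx1, a transcription factor gene of hair follicle activation, was at 36.2 against 5.17 FPKM, Col18a1, a basement membrane collagen gene, at 206 against 23.4 and the receptor phosphatase gene Ptprk at 18.4 against 2.59, all higher in HFSC. On the lower side were Cd200, an immune checkpoint ligand gene of bulge cells, at 0.465 against 28.2 FPKM, the Wnt inhibitor gene Sfrp1 at 2.73 against 17.4, the nephronectin gene Npnt at 3.29 against 16.2 and Krt15. Nfatc1, a regulator of bulge quiescence, was at 5.78 against 11.7 FPKM and lower. Of the bulge factor genes named above, Sox9 was higher (55.2 against 20.4 FPKM) and Lhx2 lower (2.06 against 7.91). Tbx1 (14.8 against 10.3) and Nfib (25.0 against 26.2), both transcription factor genes of the niche, were not called. Fewer cells of a type and less RNA per cell cannot be told apart in such libraries, here and in each result below.

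**Figure D2:**
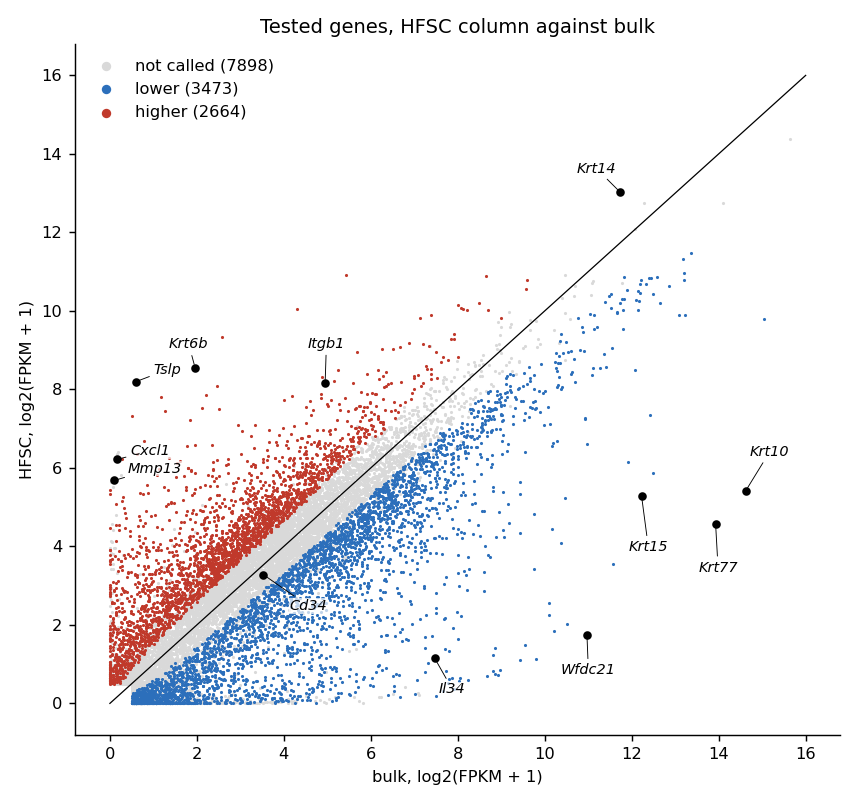
Level of every tested gene in HFSC (vertical) against bulk (horizontal), both as log2(FPKM + 1), with genes called higher in HFSC in red, lower in blue and not called in grey; the line marks equal levels. Mmp13, Cxcl1 and Tslp lie far above the line at a bulk level under 1 FPKM, and Krt10 and Krt77 lie far below it.

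Called genes with at least 5 FPKM in the higher column and a level above 0 in the lower were ranked by fold. The 12 largest on the higher side were Mmp13, Cxcl1, Tslp, Hmga2, Ccl2, Bst1, Cxcl3, Cdkn2a, Anxa3, Stab1, Ccl7 and Inhba, with folds from 154 to 662. Hmga2, a chromatin protein gene of fetal and transformed cells, was at 11.9 FPKM against 0.0310, at a locus that also covers Mir763. Bst1, which encodes an ADP-ribosyl cyclase on the cell surface, was at 74.2 against 0.204, at a locus shared with Fbxl5. Anxa3, an annexin gene, was at 223 against 1.27. Stab1, a scavenger receptor gene best known from macrophages and endothelium, stood at 34.5 FPKM against 0.215, at a locus shared with Nt5dc2. In all, 340 called genes were at least 10-fold and 26 at least 100-fold higher.

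Large folds were more frequent on the lower side, with 828 called genes at least 10-fold and 115 at least 100-fold lower. The 12 largest were Ifitm6, Wfdc21, Tspan8, Skint5, Gadl1, Hsd17b14, Mt4, Defb6, Krt77, Skint9, H2-Aa and Skint10, with folds from 669 to 1369.8. Mt4, the metallothionein gene of differentiating stratified epithelium, was at 0.649 FPKM against 489, and Tspan8, a tetraspanin gene, at 0.285 against 239. Hsd17b14, a steroid dehydrogenase gene, was at 0.0406 FPKM against 33.2. Krt77, a keratin gene of the suprabasal layers, was at 22.6 FPKM against 15602. In the 4 culture columns Wfdc21, Mt4, Defb6, Skint5 and Skint9 were each listed at 0.

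**Figure D3:**
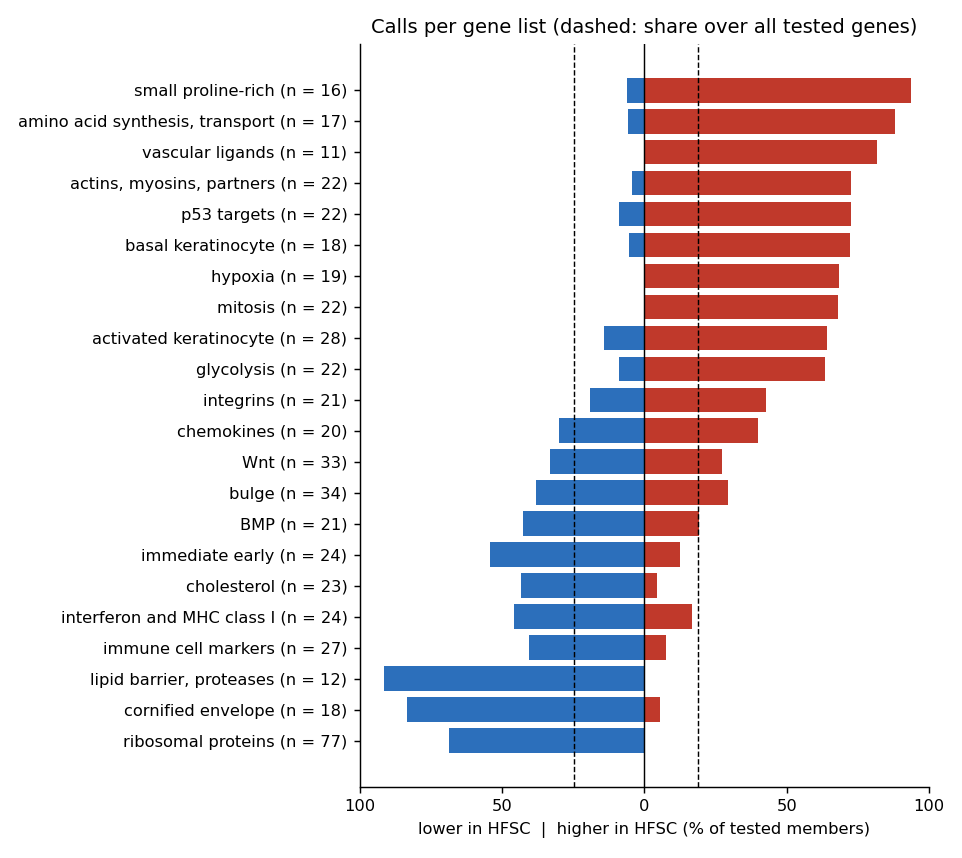
Share of tested members of 22 gene lists that were called higher in HFSC (red, to the right) or lower (blue, to the left) than in bulk, with the number tested in brackets; dashed lines mark 19% and 24.7%, the shares over all tested genes. Small proline-rich genes reach 93.8% higher, and lipid barrier genes and proteases 91.7% lower.

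Genes that anchor the basal layer were higher as a group. Of 18 basal keratinocyte genes 13 were higher and 1 lower, with a median of 1.83. Hemidesmosomes join the alpha-6 beta-4 integrin to laminin 332. Itgb4 stood at 337 against 59.7 FPKM, and the laminin 332 chain genes Lama3 and Lamb3 at 116 against 17.1 and 163 against 57.3, all higher in HFSC. Dst, which encodes the hemidesmosome plakin, was at 187 against 59.1 and higher, and Plec, the other plakin gene, at 78.0 against 73.0 and not called at a locus shared with Parp10. Bnc1, a zinc finger gene of proliferating keratinocytes, was 15.99-fold higher at 35.6 against 2.22 FPKM. The 1 lower member was Sox6 (0.102 against 2.61 FPKM). Krt5, the partner of Krt14, was at 6893 against 4960.2 and was not called.

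Keratins of differentiating layers were at a small part of their bulk level. All but 1 of 6 suprabasal keratins were lower, and the exception, Krt2, was at 0.00463 FPKM against 4.42 without a call. Krt1 was at 10.7 against 3056 FPKM, Krt78 at 16.5 against 142 and Krt80 at 68.0 against 441. Of 12 genes of the lipid barrier and of desquamation 11 were lower and 0 higher, with a median of -2.70. Examples are the kallikrein protease genes Klk5 (19.1 against 686 FPKM) and Klk7 (102 against 1248), Casp14, the caspase gene of cornification (17.6 against 273), and Alox12b, a lipoxygenase gene of the lipid envelope (14.8 against 128). Among 8 transcription factors of differentiation 6 were lower, among them Zfp750 (16.4 against 68.7 FPKM) and Grhl1 (28.8 against 114), and Ovol1 (26.03 against 40.4) was not called.

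The cornified envelope did not go down as 1 block. Of 18 envelope genes 15 were lower, led by Flg2 at 1.79 against 745 FPKM, Lor, the loricrin gene, at 57.6 against 5734 and Krtdap at 884 against 33997. The 1 higher member was Rptn, the repetin gene, at 15.9 FPKM against 0.695. The small proline-rich genes, whose products are cross-linked into the envelope, were higher for 15 of 16 tested, with a median of 3.41. Sprr1b stood at 647 FPKM against 5.01 in bulk and 0.159 in CD34a6, Sprr2d at 172, 1.42 and 0.0514, and Sprr2h at 233, 3.61 and 0.512. Against CD34a6 Sprr1b was called higher, and Sprr2d and Sprr2h were not called. Sprr1a, which was already at 165 FPKM in bulk, was at 946. Sprr2b was at 11.3 FPKM and Sprr2k at 5.604, with both bulk values listed at 0. The single lower member was Sprr4 at 6.11 against 48.5 FPKM. Members of the Sprr2 group are close copies, so reads may be split among them. Sprr2a1 and Sprr2a2 share 1 locus and 1 value, which counts for each of them in the 16, and the 16 include a pseudogene.

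Late cornified envelope genes went both ways. Of 20 tested 10 were higher and 6 lower, with 7 higher, 6 lower and 1 not called of the Lce1 genes and 3 higher, 0 lower and 3 not called of the Lce3 genes. The Lce3 genes, which are known from wounded and psoriatic skin, were all above bulk in level. Lce3d was at 80.5 FPKM against 0.543, Lce3c at 93.1 against 2.41, and Lce3b at 39.2 with bulk listed at 0. Lce3a, Lce3e and Lce3f, at 20.4, 26.8 and 45.0 FPKM against 0.0590, 0.106 and 0.0524, were not called. Of the Lce1 genes, Lce1g (55.1 against 1.13), Lce1e (87.4 against 11.2) and Lce1k (23.8 against 2.24) were higher, and Lce1m (3.72 against 1087), Lce1c (47.4 against 183), and Lce1a2 (76.7 against 235) lower. These genes are close copies too.

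**Figure D4:**
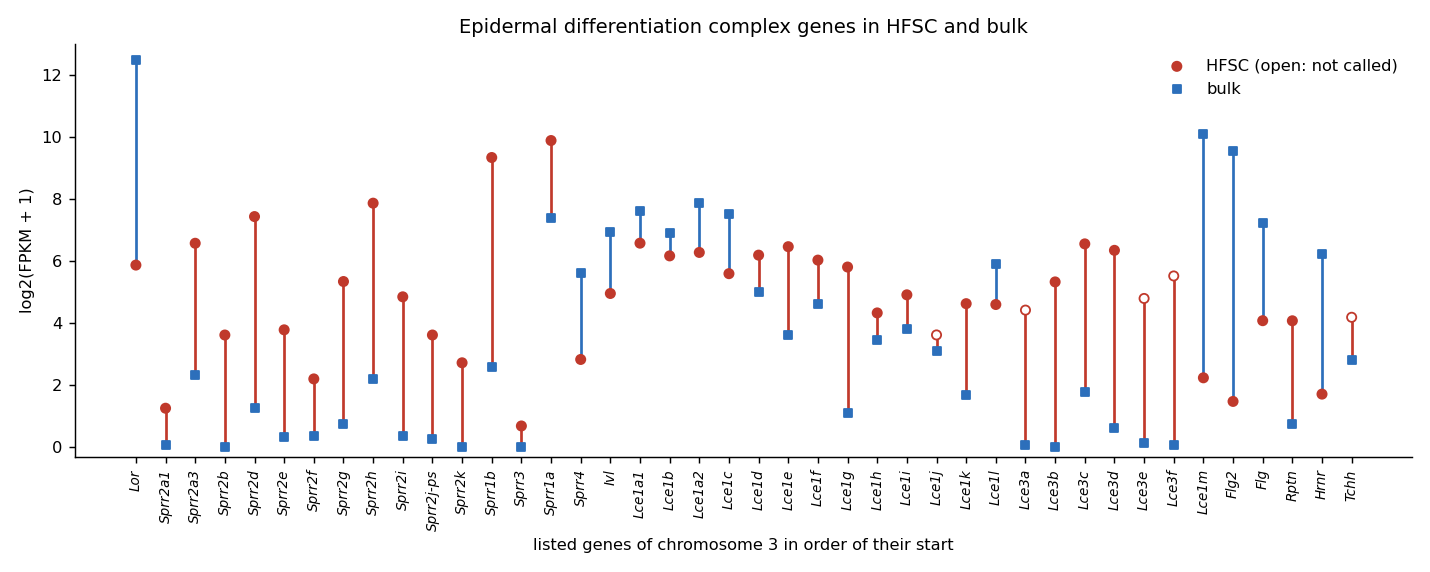
Level, as log2(FPKM + 1), of 42 listed genes of the epidermal differentiation complex in order along chromosome 3, in HFSC (circles, open where not called) and bulk (squares); a red bar marks a higher HFSC level and a blue bar a higher bulk level. Of these genes 25 were called higher and 12 lower, with Lor, Flg and Flg2 on the lower side and the run of small proline-rich genes, but for Sprr4, on the higher.

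Promoter windows of Sprr1a and Sprr2d are shown because the small proline-rich genes moved together. They are RefSeq sequences on GRCm38.p6, from 250 bases before to 50 after the gene's start, read 5′ to 3′ along the gene. Sprr1a is at chr3:92485832-92486131 on the minus strand and Sprr2d at chr3:92338890-92339189 on the plus strand. Capitals mark the AP-1 motif TGANTCA, searched on both strands.
Sprr1a: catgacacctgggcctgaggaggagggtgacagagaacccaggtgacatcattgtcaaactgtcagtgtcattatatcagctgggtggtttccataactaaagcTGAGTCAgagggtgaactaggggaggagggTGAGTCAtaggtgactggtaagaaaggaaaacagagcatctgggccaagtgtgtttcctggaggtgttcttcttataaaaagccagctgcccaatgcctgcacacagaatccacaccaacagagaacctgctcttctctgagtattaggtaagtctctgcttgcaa
Sprr2d: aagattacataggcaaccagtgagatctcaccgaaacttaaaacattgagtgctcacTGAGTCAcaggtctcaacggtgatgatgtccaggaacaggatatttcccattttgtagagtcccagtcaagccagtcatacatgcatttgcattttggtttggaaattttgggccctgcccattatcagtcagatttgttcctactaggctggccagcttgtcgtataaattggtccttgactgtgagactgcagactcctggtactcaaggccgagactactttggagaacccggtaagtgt
The motif starts 146 and 116 bases before the start of Sprr1a and 193 before that of Sprr2d. It is in 9 of the 13 windows of small proline-rich genes called higher and in 0 of 9 of late cornified envelope genes called higher. It is in 4.78% of the windows of all genes called higher and in 7.17% of those called lower. The share is 5.62% for windows of tested genes and 7.81% for all 32851 windows. The windows of close copies are alike and are not independent, and a match is a description of letters.

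Activated keratinocyte genes were higher for 18 of 28 tested and lower for 4. Krt6a was at 1913 FPKM in HFSC, 42.3 in bulk and 77.0 in CD34a6, and Krt16 at 1058, 18.9 and 0.973. Krt17 was at 1915 against 1404 FPKM and was not called. The alarmin genes S100a8 and S100a9 were at 128 against 14.8 and 135 against 6.74 FPKM, both higher. Itga5, the fibronectin receptor chain gene, was at 8.79 against 0.685 FPKM and Adam8, a membrane protease gene, at 54.0 against 4.10, both higher. Plaur, the urokinase receptor gene, at 6.06 against 0.0352 FPKM, and Adam12, at 16.6 against 0.0197, were not called. Krt75, a companion layer keratin gene, was lower at 1.00 against 15.5 FPKM.

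Among matrix proteases and their inhibitors 8 of 15 tested were higher and 3 lower. Next to Mmp13, the stromelysin gene Mmp3 was at 7.80 against 1.43 FPKM and higher, and Mmp10 (3.31 against 0.0135) and Mmp1b (2.72 against 0.0119) were not called. Adamts9 was at 2.49 against 0.270 and higher, while Mmp28 (3.47 against 10.7) and Mmp15 (2.87 against 9.54) were lower. Timp3, which encodes an inhibitor bound to the matrix, was at 125 against 11.7 FPKM and higher. The Mmp13 promoter window (RefSeq, GRCm38.p6, chr9:7272264-7272563, plus strand) is shown because Mmp13 had the largest fold. It holds 1 AP-1 motif, in capitals, 35 bases before the start.
Mmp13: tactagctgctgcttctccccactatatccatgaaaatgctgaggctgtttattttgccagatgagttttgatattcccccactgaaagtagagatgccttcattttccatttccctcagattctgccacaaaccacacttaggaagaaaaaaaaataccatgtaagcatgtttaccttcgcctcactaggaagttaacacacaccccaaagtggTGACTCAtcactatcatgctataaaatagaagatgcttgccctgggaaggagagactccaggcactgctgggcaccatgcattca

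Among inflammatory ligands the folds were large. Of 9 tested CXC chemokine genes 4 were higher and 2 lower, and of 7 CC chemokine genes 4 and 1. Cxcl1, a neutrophil attractant, was at 73.6 FPKM in HFSC, 0.125 in bulk and 0.101 in CD34a6 (q = 0.0211 against bulk in the authors' deposited table). Its relatives in the same gene cluster, Cxcl3 and Cxcl2, were at 32.7 and 11.3 FPKM, against 0.104 in bulk for Cxcl3 and a value listed at 0 for Cxcl2. Ccl2, a monocyte attractant, was at 159.7 FPKM, 0.433 and 0.0601 at a locus shared with Gm17268. Ccl7 was at 37.2, 0.239 and 0.0409 FPKM. The level was largest in HFSC for each of these genes, but against CD34a6 only Cxcl1 and Cxcl2 were called, and Cxcl3, Ccl2 and Ccl7 were not. Ccl8 was at 21.1 FPKM with bulk and CD34a6 listed at 0, and Ccl20, the CCR6 ligand gene, at 49.6 against 4.29. Cxcl5, at 49.1 FPKM against 0.0148, was not called.

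Of the chemokine ligand genes, 2 of 9 CXC (22.2%) and 1 of 7 CC (14.3%) were lower, beside 24.7% of all tested genes. Ccl27a, which draws T cells to skin, was at 12.3 against 429.6 FPKM, Cxcl14, a chemokine of unperturbed epithelium, at 22.9 against 133 and Cx3cl1, the fractalkine gene, at 0.648 against 6.19, all lower. The scavenging receptor genes Ackr4 (0.480 against 49.2) and Ackr3 (2.54 against 11.4) were lower as well. In the culture columns Ccl2 ranged from 105 to 532 FPKM, Cxcl1 from 15.1 to 21.3 and Cxcl5 from 1.75 to 6.77. The Ccl2 level was thus largest in the CD34neg fraction, and the Cxcl1 and Cxcl5 levels in HFSC, across tables that were normalised apart.

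Windows of these 3 CXC genes of a cluster on chromosome 5 are shown because all 3 were called higher from bulk levels under 1 FPKM. They are at chr5:90890995-90891294 (Cxcl1), chr5:90903649-90903948 (Cxcl2) and chr5:90785851-90786150 (Cxcl3), on the plus strand, from RefSeq on GRCm38.p6. Capitals mark the kappaB motif, which NF-kB dimers bind.
Cxcl1: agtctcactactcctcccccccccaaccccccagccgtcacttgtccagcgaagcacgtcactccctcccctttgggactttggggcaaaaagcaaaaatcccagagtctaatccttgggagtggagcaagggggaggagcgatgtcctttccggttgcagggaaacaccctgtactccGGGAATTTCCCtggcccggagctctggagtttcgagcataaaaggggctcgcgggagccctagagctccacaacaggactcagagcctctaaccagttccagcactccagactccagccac
Cxcl2: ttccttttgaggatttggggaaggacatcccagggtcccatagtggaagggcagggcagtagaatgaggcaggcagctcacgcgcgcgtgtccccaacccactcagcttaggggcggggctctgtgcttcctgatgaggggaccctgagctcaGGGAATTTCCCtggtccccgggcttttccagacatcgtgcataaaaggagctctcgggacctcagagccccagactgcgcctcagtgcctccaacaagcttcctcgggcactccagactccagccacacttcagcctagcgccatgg
Cxcl3: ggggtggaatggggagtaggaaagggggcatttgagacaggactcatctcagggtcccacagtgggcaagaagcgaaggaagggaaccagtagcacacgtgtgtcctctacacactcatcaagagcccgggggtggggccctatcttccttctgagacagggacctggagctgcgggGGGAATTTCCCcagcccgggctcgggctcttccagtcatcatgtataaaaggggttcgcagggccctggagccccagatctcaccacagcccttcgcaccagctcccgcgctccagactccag
The marked run holds 2 overlapping matches, 1 on each strand, and begins 71 bases before the start of Cxcl1, 97 before that of Cxcl2 and 73 before that of Cxcl3. A kappaB match lies in 4 of the 5 windows available for chemokine ligand genes called higher. Among cytokine ligand genes called higher, it lies in 2 of 6 windows. It lies in 6.72% of windows of all genes called higher, in 5.36% of those of tested genes and in 4.51% of all windows. The 3 genes are close relatives, so their windows are not independent.

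**Figure D5:**
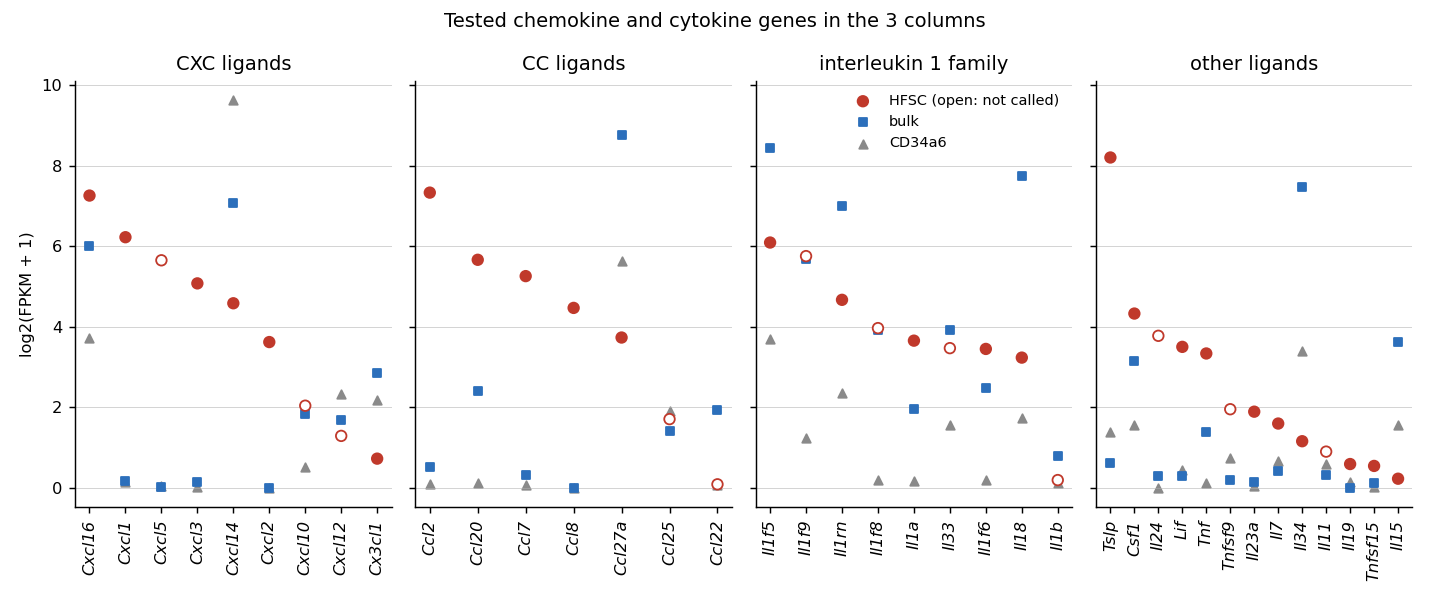
Levels, as log2(FPKM + 1), of the tested CXC, CC, interleukin 1 family and other cytokine ligand genes in HFSC (circles, open where not called), bulk (squares) and CD34a6 (triangles), 1 deposited value each. Tslp stands at 293 FPKM in HFSC against 0.521 in bulk, and Ccl27a, Il34, Il15 and Il18 stand higher in bulk.

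Cytokine ligands outside the interleukin 1 family were higher for 8 of 13 tested and lower for 2. Tslp, an epithelial cytokine of type 2 inflammation, was at 293 FPKM in HFSC, 0.521 in bulk and 1.60 in CD34a6, at a locus that also covers Wdr36. Against CD34a6 Tslp was not called. Across the culture columns it ran from 399.9 to 1543 FPKM, so none of these was as low as bulk. Lif was at 10.3 against 0.214 FPKM, Il23a at 2.70 against 0.108 and Tnf at 9.08 against 1.61, all higher. Il24, at 12.7 against 0.226 FPKM, was not called. Il34, the ligand that keeps Langerhans cells, was lower at 1.22 against 176 FPKM and Il15, a lymphocyte survival factor, at 0.167 against 11.2. In the interleukin 1 family Il1a (11.6 against 2.85) and Il1f6 (9.90 against 4.59) were higher, and the antagonist genes Il1rn (24.4 against 126) and Il1f5 (67.0 against 347), with Il18 (8.38 against 212), lower. Il1r2, the decoy receptor gene, was lower at 1.51 against 221 FPKM. Of 14 listed genes of NF-kB subunits and of its response 4 were higher (28.6%) and 0 lower. The shares over all tested genes were 19% and 24.7%. Of the 5 subunit genes 0 were called. The higher ones were Tnfaip2 (14.1 against 2.83 FPKM), Bcl3 (33.8 against 9.03), Nfkbiz (22.1 against 6.07) and Tnfaip3 (22.5 against 6.23). Nfkbia stood at 159 against 107 FPKM and was not called.

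The cyclooxygenase genes of prostaglandin synthesis went in opposite directions. Ptgs2, the inducible cyclooxygenase gene, was at 46.0 FPKM in HFSC, 0.813 in bulk and 0.301 in CD34a6, and Ptgs1, the constitutive one, at 6.45, 297 and 15.3. Both differences from bulk were called. The lipoxygenase genes Alox12 (0.168 against 45.2 FPKM) and Alox5 (0.234 against 6.24) were lower, and Hpgd, which encodes the prostaglandin-degrading dehydrogenase, was higher at 24.7 against 4.56. Of 17 tested antimicrobial and acute phase genes 7 were higher and 5 lower. Defb14 was at 94.3 against 2.91 FPKM, the protease inhibitor gene Slpi at 62.8 against 2.45 and the complement gene C3 at 21.8 against 0.706, all higher, and Defb4 was at 5.92 and Saa3 at 7.05 with bulk listed at 0. Defb6 and Wfdc21 were lower, and Lcn2, at 11.8 against 0.0290 FPKM, was not called.

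Transcripts of immune cells were low in HFSC. Of 27 tested immune markers 11 were lower and 2 higher, the higher ones being S100a8 and S100a9, which keratinocytes also make. The whole list summed to 304 FPKM in HFSC, 773 in bulk and 55.1 in CD34a6, with most of the HFSC sum in these same genes. The listed T cell markers had a summed level of 0.686 FPKM in HFSC and 119 in bulk, and those of Langerhans cells and macrophages 41.1 and 632. Epcam, which keratinocytes express too, made up 32.0 FPKM of the former sum. Ptprc, the pan-leukocyte gene, Cd2 and Lyz2 were listed at 0 in HFSC, and Cd207, the Langerin gene, was at 0.0168 against 11.2 FPKM without a call.

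Markers of other cell types went both ways. Of 7 tested fibroblast markers 3 were lower and 0 higher, and the list summed to 2.18 FPKM in HFSC, 80.5 in bulk and 103 in CD34a6. The stromal genes Col3a1, Lum, Dpt and Mfap5 were listed at 0 in HFSC. Vim, the vimentin gene, was at 0.588 against 56.6 FPKM and lower. Of 4 tested endothelial and mural markers 2 were higher and 0 lower. Among the higher was Acta2, the smooth muscle actin gene, at 62.1 FPKM in HFSC, 1.19 in bulk and 0.289 in CD34a6. The mural markers Rgs5 and Des were at 0.0233 and listed at 0 in HFSC. In the melanocyte list Gpnmb was at 40.2 against 0.848 FPKM and Mitf at 2.51 against 0.981, both higher, while Tyrp1 was lower at 0.0674 against 1.18, and Dct (0.0386 against 2.63) and Pmel (0.212 against 2.57) were not called. The 2 tested Merkel cell markers, Krt8 (1.97 against 0.208 FPKM) and Krt18 (2.54 against 0.112), were higher, with Atoh1 listed at 0 in both columns. Erythroid markers summed to 0.332 FPKM in HFSC and 180.2 in bulk. The 3 tested markers of 3T3 feeder cells were not called and summed to 0.484 FPKM in HFSC, 19.6 in bulk and 32.7 in CD34a6. The part of these cells in the other results was not tested.

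Integrin and basement membrane genes were higher more often than lower. Of 21 tested integrin chains 9 were higher and 4 lower. Besides the hemidesmosome chains, Itga2, the collagen receptor gene, was at 29.2 against 2.76 FPKM, Itgb6, which activates latent TGF-beta, at 67.8 against 5.58 and Itga3 at 198 against 30.6, all higher. The lower chains, Itgal, Itgam, Itgb2 and Itgb7, are leukocyte integrins, and Itgb7 was at 0.298 against 2.26 FPKM. Among laminin and basement membrane genes 11 of 24 were higher and 5 lower. Lamb1 stood at 31.4 against 1.44 FPKM and Nid1, the nidogen gene, at 4.11 against 0.153, both higher, whereas Frem2, a gene of the Fraser complex, was at 0.192 against 8.003, Egfl6 at 0.0543 against 5.35 and Col4a6 at 1.01 against 5.66, all lower. Thbs1, the thrombospondin-1 gene, was at 179 against 4.65 FPKM and Fbln2, the fibulin-2 gene, at 75.3 against 1.58, both higher. Sparc (3.49 against 42.5 FPKM) and Thbs3 (0.868 against 35.6) were lower.

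Genes of the contractile cytoskeleton were higher for 16 of 22 tested and lower for 1, with a median of 1.69. Myl9, a myosin light chain gene, was at 14.0 against 1.15 FPKM, Fscn1, which encodes the actin bundler fascin, at 45.4 against 3.90, Tpm2 at 187 against 21.9 and the focal adhesion gene Zyx at 100.3 against 11.6, all higher. The lower member was Cnn2, a calponin gene, at 76.4 against 161 FPKM. Actb stood at 4321 against 4305 and was not called. Of the usual YAP targets, Cyr61 (18.3 against 21.02 FPKM) and Ctgf (9.65 against 7.02) were not called, while Arhgef17 (7.10 against 0.704) and Ajuba (89.7 against 27.4) were higher and F3, the tissue factor gene, was lower (33.8 against 139.7).

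Cell-cell junctions were divided. Of 35 tested junction genes 11 were higher (31.4%) and 14 lower (40%), beside 19% and 24.7% of all tested genes. The list median of -0.30 turns to 0.59 with columns divided by their sums. Of 13 desmosome genes 4 were higher, 5 lower and 4 not called. The higher ones were Dsg3 (218 against 27.8 FPKM), Dsc2 (29.4 against 3.23), Pkp2 (3.14 against 0.435) and Dsg2 (11.5 against 6.52). The lower ones were Dsg1a (15.0 against 394), Dsc1 (50.05 against 180.1), Pkp3 (269.8 against 587), Jup (379 against 795) and Dsc3 (229.6 against 475). The gap junction genes Gjb2 (43.8 against 13.3) and Gjb6 (12.1 against 3.24) were higher while Gjb5 (9.69 against 304) was lower. Cldn23 was lower at 0.790 against 75.4 FPKM. The E-cadherin gene Cdh1 stood at 146 against 196 and was not called. Snai2, which encodes the repressor Slug, was higher at 61.0 FPKM against 4.18, with 189 to 309 in the culture columns, while Twist1, Zeb1 and Zeb2 were under 1 FPKM in HFSC and not tested.

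EGF family ligands were split. Epgn, the epigen gene, was at 74.6 against 12.9 FPKM, Hbegf at 14.9 against 2.65, Tgfa at 21.1 against 7.88 and Areg, the amphiregulin gene, at 10.0 against 5.05, all higher. Btc, the betacellulin gene, was at 0.356 against 29.0, Ereg at 1.77 against 7.73 and Nrg4 at 0.0420 against 2.87, all lower, and Nrg1, at 16.2 against 0.0311, was not called. The receptor gene Egfr stood at 37.3 against 33.3 FPKM without a call, while Erbb2 (20.7 against 72.0) and Erbb3 (16.1 against 51.4) were lower. Vascular ligands were higher for 9 of 11 and lower for 0. Vegfc was at 1.78 FPKM with bulk listed at 0, and Pdgfc at 4.17 against 1.32. The insulin-like growth factor binding proteins were split, with Igfbp2 (29.1 against 3.40 FPKM) and Igfbp7 (102 against 15.95) higher and Igfbp3 (11.8 against 70.6), Igfbp4 (4.0001 against 27.8) and Igfbp5 (0.05003 against 2.86) lower.

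In the TGF-beta and activin list of 23 tested genes 11 were higher (47.8%) and 5 lower (21.7%). The lower share was near the 24.7% of all tested genes, and the higher one stood beside 19%. Inhba, the activin A subunit gene, was at 16.6 FPKM in HFSC, 0.107 in bulk and 0.0940 in CD34a6, and ran from 73.1 to 118 in the culture columns. Tgfb1 (28.8 against 8.54 FPKM) and the receptor genes Tgfbr1 (12.8 against 2.94) and Tgfbr2 (42.6 against 8.32) were higher, and Tgfb2 (0.535 against 1.72) and Tgfb3 (0.841 against 2.37) lower. In the BMP list of 21 genes 4 were higher (19.0%) and 9 lower (42.9%), beside 19% and 24.7% of all tested genes. The BMP median of 0.07 rises to 0.96 with columns divided by their sums, and 2 of the calls then turn direction. The ligand genes Bmp4 (0.282 against 15.3 FPKM), Bmp7 (1.31 against 7.66) and Bmp2 (1.23 against 3.86) were lower. The antagonist gene Grem1 was lower too (0.262 against 4.24), and the receptor gene Bmpr1b was higher (4.41 against 0.215). The target genes Id1 (46.3 against 51.1) and Id3 (53.1 against 43.3) were not called, while Id4 was lower (2.64 against 20.7).

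Of 33 Wnt genes 9 were higher (27.3%) and 11 lower (33.3%), beside 19% and 24.7% of all tested genes. The Wnt list had a median of -0.36 that turns to 0.46 with columns divided by their sums. The ligand genes Wnt9a (3.74 against 0.1096 FPKM), Wnt7a (5.69 against 0.628), Wnt10a (75.8 against 24.0) and Wnt5a (8.92 against 3.16) were higher. Wnt3 (0.525 against 55.1), Wnt16 (0.172 against 9.28), Wnt7b (7.83 against 78.5), Wnt11 (0.478 against 3.27) and Wnt6 (1.60 against 8.20) were lower. Axin2, a feedback target of beta-catenin, was lower at 6.69 against 18.2 FPKM. In the Notch pathway, which drives spinous differentiation, the ligand genes Jag1 (95.1 against 15.5 FPKM) and Dll1 (38.1 against 9.18) and the receptor gene Notch1 (88.4 against 35.5) were higher, while Notch3 (5.01 against 28.0) and the target gene Nrarp (11.2 against 82.8) were lower, and Hes1 (62.1 against 76.8) was not called. Hedgehog genes split at 3 higher and 3 lower of 11, each share (27.3%) near that of all tested genes. In that list Ptch1, the receptor gene and a target, was at 7.97 against 3.68 FPKM and higher, and Gli1, the other common target, at 0.283 against 1.42 and lower, at a locus shared with Arhgap9.

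Genes of sugar use and of the hypoxia response were higher more often than lower. The hypoxia-type genes were higher for 13 of 19 tested and lower for 0, with a median of 2.58, and glycolysis genes for 14 and 2 of 22. Slc16a3, the lactate exporter MCT4, was at 184 FPKM in HFSC, 3.32 in bulk and 0.253 in CD34a6. Pfkfb3, which raises the activator of phosphofructokinase, was at 26.7 against 2.34 FPKM, Ero1l, an oxidase of the endoplasmic reticulum, at 45.7 against 4.53, Car12 at 123 against 7.28, Adm, the adrenomedullin gene, at 8.38 against 0.550 and Hif1a itself at 235 against 27.9, all higher. Aldoc (7.15 against 16.2) and the neuronal enolase gene Eno2 (0.0913 against 0.937) were lower. In the culture columns Slc16a3 ranged from 40.9 to 53.7 FPKM and Vegfa from 77.8 to 248, with 54.9 for Vegfa in HFSC.

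The Slc16a3 window is shown as that of the glycolysis gene with the largest fold (RefSeq, GRCm38.p6, chr11:120948817-120949116, plus strand). Capitals mark the core ACGTG of the hypoxia response element, which starts 27 and 14 bases before the start.
Slc16a3: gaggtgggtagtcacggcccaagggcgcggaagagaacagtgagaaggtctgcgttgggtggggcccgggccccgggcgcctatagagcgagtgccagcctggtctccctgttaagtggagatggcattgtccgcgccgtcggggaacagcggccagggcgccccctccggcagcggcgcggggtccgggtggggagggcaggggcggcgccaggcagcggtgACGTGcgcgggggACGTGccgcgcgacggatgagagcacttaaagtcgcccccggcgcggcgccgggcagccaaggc
The core, on either strand, is in 9 of 12 windows of hypoxia-type genes called higher and in 10 of 20 of glycolysis genes called higher. It is in 24.7% of windows of all genes called higher, in 24.8% of those of tested genes and in 19.6% of all windows. The 20 glycolysis windows belong to at most 14 genes, so windows of a gene are not independent.

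Genes that supply amino acids were higher. Of 17 tested genes of amino acid synthesis and transport 15 were higher and 1 lower, with a median of 1.90. The cystine importer gene Slc7a11 was at 9.35 against 0.139 FPKM, Cth, which makes cysteine from cystathionine, at 62.7 against 2.46, the arginine transporter gene Slc7a1 at 72.2 against 4.54, Pycr1, of proline synthesis, at 10.4 against 0.715 and Mthfd2, of mitochondrial folate metabolism, at 66.6 against 5.37. The lower gene was Cbs, which makes cystathionine, at 12.7 against 50.6 FPKM. Of 18 aminoacyl-tRNA synthetase genes 9 were higher, such as Aars (81.3 against 21.6 FPKM) and Nars (189.8 against 52.5), and 1 was lower, Qars (194 against 506). Among ATF4 and unfolded protein response genes 11 of 21 were higher, with Atf5 at 163 against 23.7 FPKM, the glutathione-degrading enzyme gene Chac1 at 20.7 against 2.69 and the pseudokinase gene Trib3 at 56.0 against 13.7. Xbp1 (42.3 against 142) and Atf3 (7.79 against 16.8) were lower and Ddit3 (46.9 against 17.6) was not called.

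Asns, the asparagine synthetase gene, was at 174 FPKM in HFSC, 43.6 in bulk and 11.9 in CD34a6, and between 172 and 254 in the culture columns. Its window, shown as that of the classic ATF4 target, lies at chr6:7693160-7693459 on the minus strand (RefSeq, GRCm38.p6). Capitals mark the amino acid response motif TGATGNAAN, 23 bases before the start.
Asns: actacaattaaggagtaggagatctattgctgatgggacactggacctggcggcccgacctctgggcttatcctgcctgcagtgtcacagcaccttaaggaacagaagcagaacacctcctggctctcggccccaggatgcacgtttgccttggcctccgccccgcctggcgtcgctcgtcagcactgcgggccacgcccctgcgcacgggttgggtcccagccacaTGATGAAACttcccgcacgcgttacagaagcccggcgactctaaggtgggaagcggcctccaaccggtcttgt
This motif, on either strand, is in 4 of the 15 windows of amino acid genes called higher. It is in 4 of the 5 windows of synthetase genes called higher, and some of those 9 genes have no window. It is in 2.37% of windows of all genes called higher, in 2.26% of those of tested genes and in 3.95% of all windows. The hypoxia response core ACGTG is in 4 of the same 5 synthetase windows, beside 24.7% of windows of all genes called higher.

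Genes of lipid synthesis, translation and respiration were lower more often than higher. The cholesterol and fatty acid list had a median of -0.77 that turns to 0.13 with columns divided by their sums. Of 23 cholesterol genes 10 were lower and 1 higher, with Pmvk, of the mevalonate pathway, at 9.11 against 103 FPKM and Dhcr7, which makes the last step, at 26.2 against 159. Fatty acid genes split by enzyme: the elongase gene Elovl6 (3.63 against 48.3 FPKM) and the acyl-CoA synthetase gene Acsl1 (6.92 against 149) were lower, and the desaturase genes Fads3 (68.7 against 1.94) and Fads2 (10.5 against 0.569) higher. Of 77 ribosomal protein genes 53 were lower and 0 higher. Their median of -1.25 shrinks to -0.32 with columns divided by their sums, and 5 of the lower genes then turn direction. Of 34 respiratory chain genes 19 were lower (11 at q under 0.01), with a median of -1.05 that shrinks to -0.13, and of 31 proteasome genes 18, with a median of -0.80 that turns to 0.12.

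Genes of proliferation and targets of p53 were both higher more often than lower. Of 54 cell cycle genes 30 were higher and 2 lower. The D-type cyclin genes Ccnd1 and Ccnd2 were at 132 against 17.7 and 210.0 against 33.1 FPKM, Myc at 124 against 32.3 and Bub1, of the spindle checkpoint, at 8.54 against 2.73, all higher. At q under 0.01 the number of higher cell cycle genes was 19. Mycl (2.31 against 44.8) and Rb1 (6.45 against 14.5) were the lower members. Of 22 p53 target genes 16 were higher and 2 lower. The death receptor gene Tnfrsf10b was at 14.6 against 1.49 FPKM, Polk, a translesion polymerase gene, at 13.6 against 2.35 and Eda2r at 8.57 against 1.64, all higher. Cdkn1a, the p21 gene and best known p53 target, was at 225 against 563 FPKM and lower, as was Sesn1 (7.48 against 25.1). In the list of the Cdkn2a locus and senescence, the CDK inhibitor genes Cdkn2b (11.1 against 25.5), Cdkn2c (5.55 against 26.2) and Cdkn2d (5.35 against 15.5) were lower while Cdkn2a was higher.

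Of 24 immediate early genes 13 were lower and 3 higher. Fosb was at 0.109 against 17.1 FPKM, Egr2 at 0.449 against 39.3, Egr3 at 3.62 against 28.8, the phosphatase gene Dusp1 at 13.7 against 128 and Fos at 16.3 against 117, all lower. The higher members were Ier3 (212 against 15.1 FPKM), Fosl1 (6.43 against 0.801) and Fosl2 (60.9 against 21.9), the last 2 being genes of AP-1 subunits. Jun (41.7 against 66.9) and Junb (151 against 139) were not called. Of 24 interferon and MHC class I genes 11 were lower and 4 higher, and the list had a median of -0.80 that turns to 0.03 with columns divided by their sums. H2-D1 (171 against 942 FPKM), Tap1 (26.4 against 142), Ifi27 (39.0 against 270.5) and Usp18 (0.707 against 6.69) were lower. Irf1 (24.7 against 6.70), the RNA sensor gene Ddx58 (10.9 against 4.54) and Oasl2 (3.34 against 0.620) were higher.

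Against the CD34a6 column, whose test shares the HFSC libraries with the one above, 3514 of 13962 tested genes (25.2%) were higher in HFSC and 4054 (29%) lower. Among the 1100 list genes tested in that pair 516 were higher and 310 lower. For the small proline-rich and stefin list the counts were 18 higher and 1 lower of 25, for suprabasal genes 38 and 12 of 63, for ribosomal protein genes 61 and 0 of 77 and for clock genes 5 and 14 of 19. The suprabasal roles differed: 16 of 20 late cornified envelope genes and 10 of 12 lipid barrier and protease genes were higher than in CD34a6, whereas 4 of 5 suprabasal keratins were lower. Krt10 stood at 41.5 FPKM in HFSC and 874 in CD34a6, and Lor at 57.6 and 105, both lower. Bulge genes were 1 higher and 26 lower of 33, with Cd34 and Krt15 among the lower. Lce1e was at 87.4 FPKM in HFSC, 11.2 in bulk and 0.193 in CD34a6. Tgm1, the transglutaminase that cross-links the envelope, was at 25.1, 105 and 2.98, and Klk7 at 102, 1248 and 26.4. Basement membrane genes went the other way at 4 higher and 14 lower of 23, where the agrin gene Agrn was at 87.6 FPKM in HFSC, 47.5 in bulk and 339 in CD34a6. The cell cycle list had 6 higher and 19 lower of 54, with the topoisomerase gene Top2a at 63.7, 31.4 and 139 FPKM in HFSC, bulk and CD34a6.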

How the data were processed

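Libraries of polyadenylated RNA were made with a directional kit, per the labels' protocols. For the 3-population table, the tools in the submitters' processing notes are HISAT 0.1.6 and Cuffdiff of Cufflinks 2.2.1, with GRCm38 as the build, while the labels name TopHat2. For the culture tables, which have the layout of Cuffdiff, these notes name TopHat2 2.0.13 and featureCounts. Levels are FPKM values as deposited by the authors, 1 per gene and population. The log2 fold changes, p-values and q-values were also deposited by the authors, as was a test statistic, a score not used here. The smallest deposited p was 5e-05, and q is adjusted over the 3 pairs of the table together.

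Computed here were the assignment of values by population name, the turn of each log2 fold towards HFSC, counts of calls (q under 0.05), list medians with a pseudocount of 1 FPKM, and motif searches. The tools were Python 3.11.15, pandas 2.3.3 and NumPy 2.4.6. Counting and ranking were tested on simulated data. No test was made here, since no value per library was analysed. Symbols were compared with GENCODE vM21: of 13430 found, 99.9% overlapped the annotated gene and 49.1% had its ends. RefSeq windows were found for 9948 of 14525 tested symbols. A gene can have several windows or none, and motif shares count windows, not genes.

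The members and the 53 lists were chosen with earlier results of these data known. Named genes are the 4 markers, the sort genes, the 12 largest folds each way (at least 5 FPKM in the higher column), and per list role up to 6 called members each way with at least 1 FPKM. The largest folds exclude predicted, Rik, mitochondrial, Y-linked and Xist transcripts and pseudogenes. Uncalled members are named with values only. Named outside this rule, after their values were seen, were Dst, Flg, Tgm1, Sprr1a, Sprr2a1, Sprr2a2, Eno2, Hif1a, Asns, Top2a, Itgal, Lyz2, Skint3, mt-Cytb, Mt1 and Mt2. The alternatives tried were q under 0.01, adjustment over this pair alone, floors on level and fold, symbols at 1 locus only, other pseudocounts, and columns divided by their summed FPKM or centred on the median.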

Additional observations from a re-analysis of the deposited data

How the results depend on the processing

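No value per library was analysed, so no library could be left out. No paired analysis was possible because the deposited columns carry 1 value per population and no replicate number. Under the 7 alternatives for the count of calls, genes higher in HFSC ranged from 1826 (q under 0.01) to 3006 (columns divided by their summed FPKM), and genes lower from 2629 to 3473, each within 1.5 times the counts given. Dividing by the sums turned the direction of 342 of 5888 calls with both values above 0, and centring on the median turned 0. Of 53 lists 27 had a median above 0, 28 with a pseudocount of 0.1 or 0.01 or with members of at least 1 FPKM only, and 40 after division by the sums. That division also turned list medians from below to above 0: bulge (-0.14 to 0.74), serpins (-0.0186 to 0.78), Wnt (-0.36 to 0.46), lipid synthesis (-0.77 to 0.13), senescence (-0.49 to 0.27), interferon (-0.80 to 0.029), retinoid (-0.66 to 0.0658), clock (-0.23 to 0.48), junctions (-0.30 to 0.59), Hox (-0.36 to 0.35), epithelial-mesenchymal (-0.61 to 0.29), muscle (-0.24 to 0.55) and proteasome (-0.80 to 0.12) genes. The muscle median, of 2 genes, turned to 0.63 and 1.00 with pseudocounts of 0.1 and 0.01, and the bulge median to 0.00226 with members of at least 1 FPKM. Of 300 named genes that were called 23 were no longer called at q under 0.01 and 2 when adjusted over this pair alone, and 0 turned direction after division by the sums. Of 35 named genes that were not called 9 changed sign on that scale. At q under 0.01 these list counts changed by over 1.5 times: upper follicle and sebaceous genes higher in HFSC (from 2 to 1), TGF-beta and activin genes lower in HFSC (from 5 to 3), glycolysis and hypoxia genes lower in HFSC (from 2 to 1), tRNA synthetases and amino acid stress genes lower in HFSC (from 4 to 2), cell cycle genes higher in HFSC (from 30 to 19), retinoid genes higher in HFSC (from 3 to 1), epithelial-mesenchymal factors genes higher in HFSC (from 2 to 1), epithelial-mesenchymal factors genes lower in HFSC (from 4 to 2), muscle genes lower in HFSC (from 1 to 0), erythroid genes lower in HFSC (from 2 to 1) and respiratory chain genes lower in HFSC (from 19 to 11).

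Limits are as follows. The calls rest on the authors' test, whose spread between libraries cannot be seen here, and precision at low levels is unknown because depth is. FPKM is relative to each library, so a few abundant genes weigh on all others: the 10 most abundant took 12.3% of the summed FPKM in HFSC and 20.9% in bulk. The identity of the HFSC column was not settled. Close copies and overlapping loci limit single genes. Levels set across tables carry no test.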

Other observations

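Serpins, inhibitors of proteases, were split at 9 higher and 9 lower of 23 tested (39.1% each), beside 19% and 24.7% of all tested genes. Their median of -0.02 turns to 0.78 with columns divided by their sums. Serpine2 was at 40.2 against 0.624 FPKM, Serpinb6b at 9.55 against 0.218, Serpinb9b at 6.35 against 0.237 and Serpinb6c at 46.6 against 3.53, all higher in HFSC than in bulk. Serpinb12 (0.537 against 219.9), Serpinb7 (1.64 against 463) and Serpina12 (0.522 against 132), genes of differentiated epidermis, were lower. The Serpinb6 and Serpinb9 genes have close copies, among which reads may be split. Among circadian clock genes 6 were higher (31.6%) and 5 lower (26.3%) of 19, beside 19% and 24.7% of all tested genes. The clock median of -0.23 turns to 0.48 on that scale. The repressor genes Bhlhe40 (36.3 against 7.01 FPKM) and Nfil3 (19.1 against 6.27) were higher and Rora (5.55 against 37.1) and Nr1d1 (4.03 against 22.4) lower. Retinoid genes included Crabp2, a binding protein gene of retinoic acid, at 32.9 against 320.0 FPKM and lower, and Aldh1a3, which makes retinoic acid, at 3.22 against 0.196 and higher. Of the antioxidant genes, Gsta4 (42.8 against 2.90) and Gsto1 (537 against 101) were higher and Me1 (11.8 against 75.3) and Cat (24.5 against 109) lower.

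The next families were chosen after their values were seen. The Skint genes, which encode membrane proteins of skin and thymus and include the selector of dendritic epidermal T cells, were lower for 9 of 11 tested and higher for 0, and their summed level was 15.6 FPKM in HFSC and 1629 in bulk. Skint9 was at 0.669 against 461 FPKM and Skint3 at 4.82 against 120.4. Metallothioneins split by member: Mt1 and Mt2, which metals and stress induce, were at 1136 against 255 and 1883 against 402 FPKM and higher, while Mt4 was lower. Genes of the mitochondrial genome were lower for 8 of 10 tested, with mt-Cytb at 1602 FPKM against 7391.

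Calls and folds did not go together at the low end. Of 313 tested genes listed at 0 in one of the columns 79.6% were called, against 37.1% of 666 whose lower value was above 0 and under 0.1 FPKM. Among 317 genes with both values above 0 and a ratio of at least 100-fold 44.5% were called, against 68.4% of 1344 at 10-fold or more. Cxcl5, Adam12, Nrg1, Lcn2 and Lce3f belong to the uncalled genes with ratios above 100-fold.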
